A study of Mus musculus with 8 samples.

Results

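Glycolysis breaks glucose down to pyruvate, and lactate dehydrogenase and the monocarboxylate transporters turn that pyruvate into lactate and move it out of the cell. A set of 39 genes was followed here: the glucose transporters, every step from hexokinase to pyruvate kinase, lactate dehydrogenase, the lactate transporters, the pyruvate dehydrogenase kinases with their target subunit, and the enzymes that build and break down glycogen. The genes were chosen by name and found through the Ensembl identifiers that the deposited comparison tables pair with each symbol; they are 39 of the 47729 gene identifiers in the count files. All 39 passed the filter on low counts and are among the 16515 genes tested. RNA came from E14TG2a cells, a mouse embryonic stem cell line of strain 129/Ola, in 4 groups of 2 libraries, all kept for 48 h in medium with 15% serum and LIF, the cytokine that holds these cells in self-renewal.

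The WT group held 2 biological replicates of unmodified E14TG2a. The QKO group had the genotype TCF7(-/-), TCF7L1(-/-), TCF7L2(-/-), LEF1(-/-) and so lacked the full-length form of every TCF/LEF factor, the transcription factors that bind DNA for beta-catenin in Wnt signalling. QT7 and QT7L1 were QKO cells to which a single copy of TCF7 or of TCF7L1 was returned. The genotype tags disagree with the titles: QT7 carries the tag TCF7(-/-), TCF7L1(+/-), TCF7L2(-/-), LEF1(-/-) and QT7L1 the tag TCF7(+/-), TCF7L1(-/-), TCF7L2(-/-), LEF1(-/-), and the group names follow the titles throughout. In QKO, QT7 and QT7L1 replicate 1 is clone A and replicate 2 is clone B, so each library there stands for a different clone. Tcf7 was at 59.6 and 61.9 CPM (counts per 1e+06 counts, scaled by TMM) for WT, 7.98 and 19.6 for QKO, 16.6 and 20.9 for QT7, and 10.1 and 12.7 for QT7L1, and Tcf7l1 was at 73.6 and 68.8 for WT, 38.3 and 39.1 for QKO, 27.4 and 22.5 for QT7, and 37 and 27.5 for QT7L1. Counts over whole genes include transcripts of a disrupted allele, and these levels do not settle which factor a line carries.

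Libraries held 31.57 to 43.36 in units of 1e+06 counts. All 10 embryonic stem cell markers were detected in all 8 libraries, with a summed level of 6156 and 6207 CPM for WT, 7813 and 7037 for QKO, 6311 and 6875 for QT7, and 6919 and 6992 for QT7L1. Both QKO libraries were the highest: 5 of the 10 were called higher and 1 lower in QKO against WT, 1 higher and 5 lower in QT7 against QKO, and 1 higher and 4 lower in QT7L1 against QKO (edgeR, adjusted p under 0.05). The part of these markers in the enzyme results was not tested. Of 15 fibroblast (feeder) markers, 9 were detected in all 8 libraries while Lum and Fap were at 0 in every library; their summed level was 148 and 97.8 CPM for WT, 185 and 66 for QKO, 73.5 and 113 for QT7, and 62.7 and 81.6 for QT7L1. The QKO replicates hold the highest and the second lowest fibroblast sum, and the enzyme genes were low in both. The part of fibroblast RNA in the enzyme results was not tested. The summed level of 10 markers of differentiated cells, all detected, was 72.5 and 69.3 CPM for WT, 39.9 and 48.6 for QKO, 52.3 and 41.9 for QT7, and 44.2 and 42.6 for QT7L1. Replicates differed by more than counting noise in each group, so none were merged. In bulk RNA, fewer cells that express a gene and less RNA per cell cannot be told apart.

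Embryonic stem cells rely strongly on glycolysis even when oxygen is plentiful. Flux is set mainly at uptake, hexokinase, phosphofructokinase and pyruvate kinase, and many steps have several isoforms encoded by separate genes with different tissue patterns. Many of these genes are known targets of the hypoxia-inducible factors, which bind a core of A or G followed by CGTG, and of MYC, which binds the E-box CACGTG.

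The enzyme genes took a smaller share of the RNA in QKO than in any other library. They held 2.42 and 2.71% of all counts for WT, 1.51 and 1.59% for QKO, 2.05 and 2.64% for QT7, and 2.47 and 2.82% for QT7L1. Gapdh, Pkm, Eno1, Ldha and Aldoa together made up 63.7 to 69.7% of the counts of the 39 genes in every library, so the summed share mostly follows those abundant enzymes. The QKO libraries lay below the other 6, while WT, QT7 and QT7L1 overlapped one another.

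In QKO against WT, 24 of the 39 genes were called at an adjusted p under 0.05 (edgeR quasi-likelihood test, Benjamini-Hochberg over all genes tested), against 26.4% of all genes. Of these, 23 were lower and 1, Eno3, was higher, where 14.7% of all genes were called lower and 11.7% higher. The median log2 fold change was -0.56 over the 39 genes and -0.01 over all genes tested. In QT7 against QKO, 20 genes were higher and 2, Eno3 and Slc16a1, were lower, against 26.9% of all genes called, 14.8% higher and 12.1% lower, and the median was 0.6 against 0.05. In QT7L1 against QKO, 27 were higher and 1, Eno3, was lower, against 29.7% of all genes called, 15.9% higher and 13.9% lower, and the median was 0.79 against 0.02. The 3 comparisons share the QKO libraries, so they are not independent of each other.

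Counted by gene, 17 were called lower in QKO and higher in both lines with a factor returned: Slc2a1, Slc2a3, Pfkl, Pfkfb3, Aldoa, Aldoc, Tpi1, Pgk1, Eno2, Pkm, Ldha, Slc16a3, Pdk2, Pdk4, Pgm2, Pygl and Pygb. The share of all genes with this combined pattern was not computed, so the 17 cannot be read against it. A further 5 were lower in QKO and called higher in QT7L1 but not in QT7, namely Hk2, Gpi1, Gapdh, Eno1 and Ldhb; the difference between the lines was tested directly and called for none of them. Gbe1 was called lower in QKO and not called in either line against QKO. Eno3 was higher in QKO and lower in both lines. Hk1, Pfkp, Pfkfb1, Slc16a1, Pgm1 and Pygm were called against QKO in 1 or both lines without a call in QKO against WT. The remaining 9, Pfkm, Pfkfb2, Pfkfb4, Pgam1, Pdk1, Pdk3, Pdha1, Ugp2 and Gys1, were called in none of the 3 comparisons. In 23 of the 39 genes both QKO libraries lay below all 6 others, against 21.5% of all genes, and in Eno3 alone both lay above, against 19.6%. The other groups rarely stood apart in this way: both WT libraries lay below all 6 others in Pfkfb4 (6.85% of all genes) and above them in Hk2, Gapdh, Pdk1 and Gbe1 (8.14%). Both QT7 libraries lay below in Slc16a1 and Pdha1 (4.77%) and above in Pfkfb4 and Pgm1 (5.84%), and both QT7L1 libraries below in none (5.72%) and above in Pdk2 and Pygm (5.73%).

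**Figure D1:**
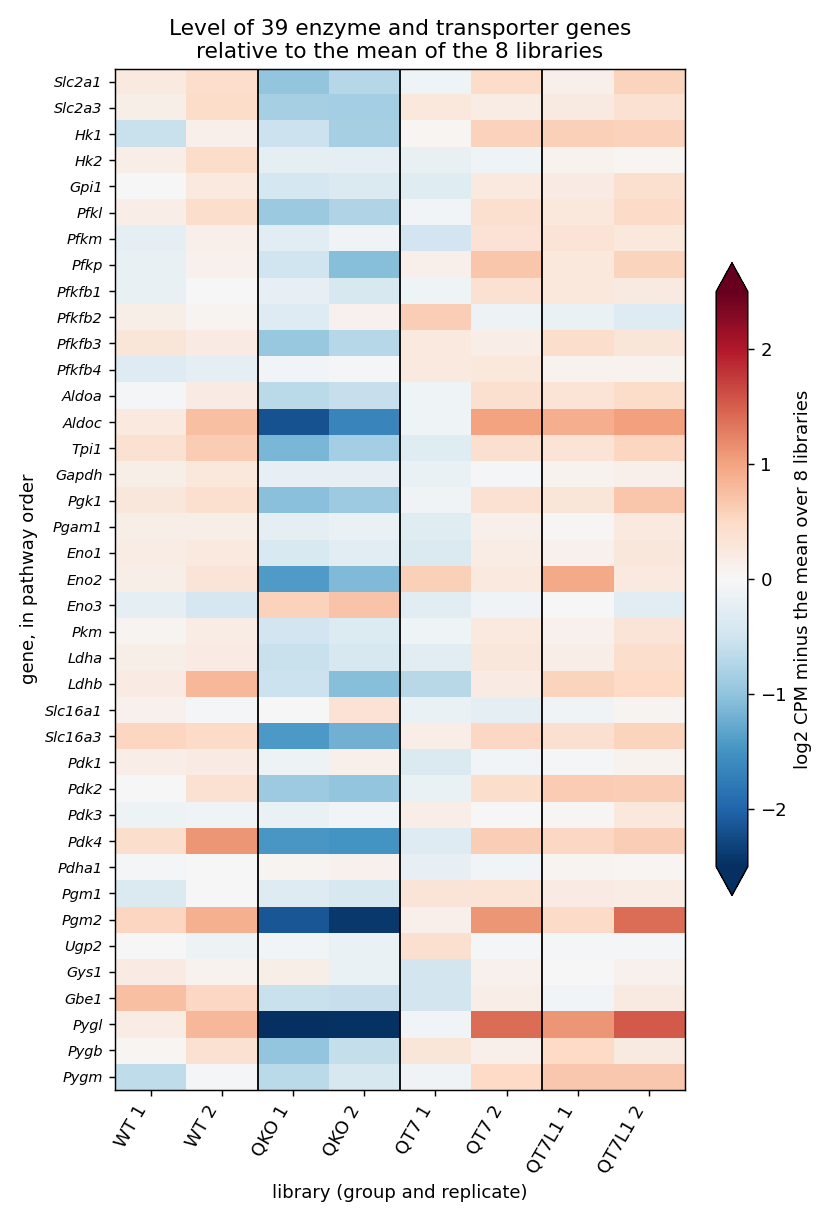
Level of each of the 39 genes (rows, in pathway order) in each of the 8 libraries (columns), as log2 CPM minus the gene's mean over the 8 libraries; blue is below that mean and red above it, and colours stop at 2.5 in either direction. The pair of QKO columns is blue for most genes, deepest for Pygl, Pgm2 and Aldoc, and red for Eno3, and QT7 replicate 1 is paler or bluer than QT7 replicate 2 in many rows.

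These counts lean on single libraries. The number called in QKO against WT fell from 24 to 13 without WT replicate 2, where 7.55% of all genes were called, and to 13 without QKO replicate 2, where 7.45% were. In QT7 against QKO it fell from 22 to 12 without QKO replicate 2 (8.39% of all genes called), and in QT7L1 against QKO from 28 to 17 without QKO replicate 2 (9.98%) and to 16 without QT7L1 replicate 2 (10.9%). Of the 39 genes, 8 were called in all 3 comparisons whichever library was left out: Slc2a3, Pfkl, Pfkfb3, Pgk1, Eno2, Eno3, Slc16a3 and Pygb. How many of all genes held in this way was not computed, so the 8 have no share to be read against. No call changed direction under any setting tried.

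Because so many of the genes moved together, the 250 bases upstream of their RefSeq transcription starts (GRCm38.p6) were searched for ACGTG, the A form of the core that hypoxia-inducible factors bind, for the E-box CACGTG, and for CTTTGA, a short form of the TCF/LEF site. Both strands were searched, and a palindromic CACGTG counts as a pair of overlapping ACGTG matches. The G form of the core, GCGTG, was not counted, so a window without ACGTG can still hold a core. RefSeq entries were found for 38 of the 39 genes, by the name GENCODE M21 gives each identifier, with 58 starts in all; Slc2a3 has no entry in the table used. At least 1 start held ACGTG in 20 of 38 genes (52.6%), against 18.5% of 27025 RefSeq genes. A gene counts if any of its starts matches, and the 38 genes had more starts per gene, with 58 against 32851 for the 27025. Counted by start, 16.6% of those 32851 held ACGTG. The RefSeq genes were not limited to the genes tested for expression. The share was 12 of 22 (54.5%) among those called lower in QKO and 8 of 16 (50%) among the rest. CACGTG was found in 6 of 38 (15.8%) against 6.86% of all genes, and CTTTGA in 6 of 38 (15.8%) against 15.8% of all. Among genes called lower in QKO, CACGTG was in 3 of 22 (13.6%) and CTTTGA in 2 of 22 (9.09%). Among the rest, CACGTG was in 3 of 16 (18.8%) and CTTTGA in 4 of 16 (25%). The windows of the 38 genes were richer in G and C, with a median of 60% against 52.4%, and held a median of 13 CG dinucleotides against 6, and ACGTG itself contains CG. A match is only a run of letters, and its part in the differences was not tested.

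The windows of Pgk1, Ldha, Aldoa and Pdk2 are shown as examples of genes that were low in QKO and high in both lines, with Pgam1, which was not called, and Eno3, which went the other way. They were picked after the values were seen, from windows that overlap no annotated exon in GENCODE M21. Each is printed 5′ to 3′ on the strand of the gene and ends just before the start, with ACGTG matches on either strand in capitals (CACGT reads as ACGTG on the other strand).
Pgk1: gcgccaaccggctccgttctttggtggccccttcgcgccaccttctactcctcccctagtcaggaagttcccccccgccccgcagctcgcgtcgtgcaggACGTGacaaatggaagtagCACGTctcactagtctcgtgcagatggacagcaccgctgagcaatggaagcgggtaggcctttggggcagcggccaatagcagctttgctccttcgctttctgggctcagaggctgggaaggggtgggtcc
Ldha: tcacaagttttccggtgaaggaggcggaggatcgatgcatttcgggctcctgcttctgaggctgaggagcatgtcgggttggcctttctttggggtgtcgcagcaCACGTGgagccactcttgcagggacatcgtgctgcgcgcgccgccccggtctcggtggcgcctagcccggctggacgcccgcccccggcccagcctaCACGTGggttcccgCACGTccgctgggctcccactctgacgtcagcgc
Aldoa: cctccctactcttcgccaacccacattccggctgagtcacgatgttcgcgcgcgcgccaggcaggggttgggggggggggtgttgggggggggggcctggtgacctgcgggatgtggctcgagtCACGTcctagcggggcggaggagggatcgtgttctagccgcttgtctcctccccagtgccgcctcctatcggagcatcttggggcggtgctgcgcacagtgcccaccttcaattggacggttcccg
Pdk2: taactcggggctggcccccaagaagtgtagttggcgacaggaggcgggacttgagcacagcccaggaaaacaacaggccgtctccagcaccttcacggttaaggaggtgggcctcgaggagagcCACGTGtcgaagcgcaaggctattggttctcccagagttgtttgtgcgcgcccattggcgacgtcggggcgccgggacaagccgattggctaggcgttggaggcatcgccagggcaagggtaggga
Pgam1: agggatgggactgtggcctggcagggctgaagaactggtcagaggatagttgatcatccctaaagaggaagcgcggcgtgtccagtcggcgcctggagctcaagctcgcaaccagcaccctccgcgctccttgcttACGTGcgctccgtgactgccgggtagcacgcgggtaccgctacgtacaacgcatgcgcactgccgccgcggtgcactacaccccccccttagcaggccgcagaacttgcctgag
Eno3: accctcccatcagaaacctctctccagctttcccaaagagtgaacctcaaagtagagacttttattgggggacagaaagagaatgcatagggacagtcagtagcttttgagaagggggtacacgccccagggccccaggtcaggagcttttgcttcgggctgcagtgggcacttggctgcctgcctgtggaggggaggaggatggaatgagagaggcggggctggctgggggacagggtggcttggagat
The coordinates are chrX:106186850-106187099 (plus strand) for Pgk1, chr7:46845554-46845803 (plus strand) for Ldha, chr7:126799255-126799504 (minus strand) for Aldoa, chr11:95041372-95041621 (minus strand) for Pdk2, chr19:41911621-41911870 (plus strand) for Pgam1 and chr11:70656926-70657175 (plus strand) for Eno3. Pgk1 holds 2 separate ACGTG matches and Ldha 5, of which 4 lie in a pair of E-boxes. Aldoa holds 1, Pdk2 a single E-box, Pgam1 1 and Eno3 none. The Eno3 window does hold TCAAAG, which is CTTTGA on the other strand, and none of the other printed windows holds CTTTGA. The G form of the core, GCGTG or CACGC by strand, occurs in the Eno3 and Pgam1 windows. Ldha and Pdk2 each have another RefSeq start whose window also overlaps no exon, at chr7:46846832-46847081 (plus strand) and chr11:95040876-95041125 (minus strand). Neither of those windows holds ACGTG, that of Ldha holds 1 CTTTGA, and they are not printed: for both genes the start whose window holds ACGTG is the one shown. Pgam1, whose window holds ACGTG, was not called in the main fit. It was called lower in QKO against WT without the filter on low counts and in a fit of those 2 groups alone. Pygl, Pgm2 and Slc16a3, whose windows overlap annotated exons and are not printed, hold ACGTG as well.

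Glucose enters these cells mainly through Slc2a1 (GLUT1) and Slc2a3 (GLUT3), and both were more than 2-fold lower in QKO. Slc2a1 (chr4:119108711-119137983) was at 862 and 988 CPM for WT, 366 and 444 for QKO, 677 and 1008 for QT7, and 797 and 1069 for QT7L1. It fell by 1.19 ± 0.21 on the log2 scale (SE) in QKO against WT (adjusted p = 0.00596) and was higher by 1.06 ± 0.21 in QT7 (adjusted p = 0.00872) and by 1.2 ± 0.21 in QT7L1 (adjusted p = 0.00483) against QKO. Slc2a3 (chr6:122727809-122801640) was at 1496 and 1865 CPM for WT, 766 and 753 for QKO, 1616 and 1549 for QT7, and 1582 and 1773 for QT7L1. The lowest library outside QKO, at 1496 CPM, stood well above the higher of the QKO libraries, at 766. The fold changes of Slc2a3 were -1.15 ± 0.11 in QKO against WT (adjusted p = 0.000598), 1.06 ± 0.11 in QT7 (adjusted p = 0.000769) and 1.14 ± 0.11 in QT7L1 (adjusted p = 0.000653) against QKO. Per kilobase of exon the RNA counts were split almost evenly between the pair, with Slc2a1 at 46.4 to 57.3% over the 8 libraries and no separation by group. Uptake itself was not measured. The call for Slc2a1 in QKO against WT was lost without WT replicate 2 or QKO replicate 1 (adjusted p up to 0.0603), and in QT7 against QKO without QKO replicate 1 (adjusted p = 0.0694).

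Hexokinase traps glucose in the cell as glucose 6-phosphate. Hk2 (chr6:82725025-82774454), the inducible isoform, was at 580 and 708 CPM for WT, 434 and 441 for QKO, 457 and 478 for QT7, and 547 and 537 for QT7L1. It fell by 0.56 ± 0.1 in QKO against WT (adjusted p = 0.00487) and rose by 0.31 ± 0.1 in QT7L1 against QKO (adjusted p = 0.0469), while QT7 against QKO gave 0.1 ± 0.1 (adjusted p = 0.532). Hk2 was also the single gene of the 39 called in QT7 against WT, at -0.46 ± 0.1 (adjusted p = 0.0376), with both QT7 libraries below both WT libraries. Hk1 (chr10:62268855-62379908), the isoform most tissues express constantly, was at 82 and 131 CPM for WT, 83.1 and 67.4 for QKO, 124 and 179 for QT7, and 180 and 178 for QT7L1. The WT and QKO libraries overlapped, and Hk1 changed by -0.51 ± 0.25 in QKO (adjusted p = 0.168) but rose by 1.01 ± 0.25 in QT7 (adjusted p = 0.0211) and by 1.25 ± 0.25 in QT7L1 (adjusted p = 0.0091) against QKO. Its share of hexokinase per kilobase of exon was 9.01 and 11.5% for WT, 11.8 and 9.66% for QKO, 15.9 and 20.8% for QT7, and 18.8 and 18.8% for QT7L1. The hexokinase mix thus stood apart in the lines with a factor returned, above both WT and QKO, with Hk2 in the lead everywhere. Calls here were fragile: Hk1 lost its call in QT7 without either QKO library or QT7 replicate 2 (adjusted p up to 0.146) and in QT7L1 without QKO replicate 2 or QT7L1 replicate 2 (adjusted p up to 0.0798). Hk2 lost its call in QT7L1 against QKO on leaving out any 1 of the QKO or QT7L1 libraries (adjusted p up to 0.162) and with DESeq2, and in QT7 against WT on leaving out any 1 of the libraries other than QT7 replicate 2 (adjusted p up to 0.177).

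Gpi1 (chr7:34201330-34230336), which converts glucose 6-phosphate to fructose 6-phosphate, was at 681 and 797 CPM for WT, 494 and 524 for QKO, 547 and 796 for QT7, and 780 and 886 for QT7L1. It fell by 0.54 ± 0.16 in QKO against WT (adjusted p = 0.039) and rose by 0.71 ± 0.16 in QT7L1 against QKO (adjusted p = 0.0121). QT7 against QKO gave 0.4 ± 0.16 (adjusted p = 0.0988), with QT7 replicate 1 just above the QKO libraries and replicate 2 at the WT level. On leaving out any 1 library of WT, QKO or QT7L1 the call in QKO against WT was lost (adjusted p up to 0.233), and that in QT7L1 without either QKO library or QT7L1 replicate 2 (adjusted p up to 0.0871).

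Phosphofructokinase commits the sugar to glycolysis, and its liver-type gene Pfkl showed the clearest change. Pfkl (chr10:77986947-78010083) was at 562 and 682 CPM for WT, 265 and 297 for QKO, 480 and 664 for QT7, and 601 and 697 for QT7L1. It fell by 1.15 ± 0.16 in QKO (adjusted p = 0.00201) and rose by 1.03 ± 0.16 in QT7 (adjusted p = 0.00278) and 1.21 ± 0.16 in QT7L1 (adjusted p = 0.00141), with no overlap between QKO and the rest. The platelet-type gene Pfkp was at 389 and 477 CPM for WT, 314 and 214 for QKO, 485 and 718 for QT7, and 534 and 652 for QT7L1. All 4 libraries with a factor returned lay above both WT libraries. Pfkp changed by -0.72 ± 0.24 in QKO against WT (adjusted p = 0.0623) and rose by 1.19 ± 0.24 in QT7 (adjusted p = 0.0111) and 1.17 ± 0.24 in QT7L1 (adjusted p = 0.0108) against QKO. The muscle-type gene Pfkm was at 45.8 and 59.6 CPM for WT, 44.9 and 50.9 for QKO, 38.9 and 69.7 for QT7, and 68.7 and 64.9 for QT7L1, and was called in no comparison. Pfkl led the step in every library but its share per kilobase was 66.3 and 65.6% for WT, 51.8 and 58.8% for QKO, 60 and 57.2% for QT7, and 59.8 and 60.5% for QT7L1. Pfkm held 17.6 and 20.1% in QKO against 9.73 to 13.7% in the other 6 libraries. Pfkp was not called without QKO replicate 2 in QT7 (adjusted p = 0.0653), nor without QKO replicate 2 or QT7L1 replicate 2 in QT7L1 (adjusted p up to 0.0712), and 10.2% of the exon bases of Pfkm lie under another gene on the same strand.

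PFK-2/FBPase-2 enzymes make and remove fructose 2,6-bisphosphate, the strongest activator of phosphofructokinase, and Pfkfb3 is the isoform most biased toward making it. Pfkfb3 (chr2:11471433-11554077) was at 36.2 and 33.9 CPM for WT, 15.1 and 17.9 for QKO, 34.6 and 32.5 for QT7, and 39.6 and 35.9 for QT7L1. Its fold changes were -1.09 ± 0.13 in QKO (adjusted p = 0.000997), 1.03 ± 0.13 in QT7 (adjusted p = 0.00125) and 1.19 ± 0.13 in QT7L1 (adjusted p = 0.000796), and every library outside QKO lay between 32.5 and 39.6 CPM. Pfkfb1 was at 13.9 and 15.9 CPM for WT, 13.6 and 11.9 for QKO, 14.6 and 20.4 for QT7, and 18.9 and 18.3 for QT7L1. It was called only in QT7L1 against QKO, at 0.55 ± 0.18 (adjusted p = 0.0475), and lost that call on leaving out any 1 library of WT, QKO or QT7L1 (adjusted p up to 0.239) and with upper-quartile scaling. Pfkfb2 stood at 3.78 to 7.25 CPM and Pfkfb4 at 3.98 to 6.03 CPM over the 8 libraries, with no call. By share per kilobase Pfkfb3 led in WT at 49 and 44.9%, and Pfkfb1 led in QKO at 49.1 and 42.4% with Pfkfb3 at 29.1 and 33.6%. In QT7 the lead was Pfkfb3 in replicate 1 and Pfkfb1 in replicate 2, and in QT7L1 Pfkfb3 held 45.1 and 43.5%.

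Aldolase splits fructose 1,6-bisphosphate. Aldoa (chr7:126795234-126800751), the main isoform at 98 to 99.5% of the step, was at 1987 and 2358 CPM for WT, 1289 and 1377 for QKO, 1894 and 2699 for QT7, and 2613 and 2830 for QT7L1. It fell by 0.7 ± 0.16 in QKO (adjusted p = 0.0112) and rose by 0.78 ± 0.16 in QT7 (adjusted p = 0.00701) and 1.03 ± 0.16 in QT7L1 (adjusted p = 0.00212). The brain-type gene Aldoc (chr11:78322968-78327781) was scarcer and changed more: it was at 36.2 and 51.6 CPM for WT, 6.79 and 9.79 for QKO, 28.3 and 61.5 for QT7, and 57.8 and 62.9 for QT7L1. Its fold changes were -2.40 ± 0.4 in QKO (adjusted p = 0.00731), 2.44 ± 0.4 in QT7 (adjusted p = 0.00676) and 2.86 ± 0.4 in QT7L1 (adjusted p = 0.00364). Aldoc made up 1.6 and 1.91% of the step in WT and 0.468 and 0.63% in QKO. In QKO against WT, Aldoa was not called without WT replicate 2 or either QKO library (adjusted p up to 0.0957) and Aldoc without WT replicate 2 or QKO replicate 1 (adjusted p up to 0.0574). In QT7 neither was called without QKO replicate 1 (adjusted p = 0.0518 for Aldoa and 0.054 for Aldoc), and the fold change of Aldoa was 0.51 without QT7 replicate 2.

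The next enzymes each have a single gene in the set, and they did not move alike. Tpi1 (chr6:124810586-124814296), which interconverts the triose phosphates, was at 758 and 912 CPM for WT, 266 and 324 for QKO, 472 and 770 for QT7, and 744 and 852 for QT7L1. It fell by 1.5 ± 0.22 in QKO (adjusted p = 0.00368) and rose by 1.07 ± 0.22 in QT7 (adjusted p = 0.0109) and 1.44 ± 0.22 in QT7L1 (adjusted p = 0.00341). Gapdh (chr6:125161715-125166467), the highest of the 39 genes per kilobase in all 4 groups, was at 4505 and 4901 CPM for WT, 3535 and 3517 for QKO, 3649 and 3955 for QT7, and 4314 and 4473 for QT7L1. Often used as a reference gene, Gapdh itself fell by 0.42 ± 0.09 in QKO (adjusted p = 0.00743) and rose by 0.32 ± 0.09 in QT7L1 against QKO (adjusted p = 0.0201), with 0.11 ± 0.09 in QT7 against QKO (adjusted p = 0.378). Without QKO replicate 1 or 2, Tpi1 lost its call in QT7 (adjusted p up to 0.0787), and its fold change there was 0.68 without QT7 replicate 2. For Gapdh the call in QKO against WT was lost without WT replicate 2 or QKO replicate 2 (adjusted p up to 0.068), and the call in QT7L1 on leaving out any 1 of the QKO or QT7L1 libraries (adjusted p up to 0.123).

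Pgk1 (chrX:106187100-106203699), the first of the ATP-yielding steps, was at 834 and 907 CPM for WT, 332 and 364 for QKO, 650 and 891 for QT7, and 850 and 1104 for QT7L1. Both QKO libraries stood far under the other 6. Its fold changes were -1.32 ± 0.17 in QKO (adjusted p = 0.0013), 1.15 ± 0.16 in QT7 (adjusted p = 0.00213) and 1.49 ± 0.17 in QT7L1 (adjusted p = 0.000911), called whichever library was left out. Pgam1 (chr19:41911923-41918660), the next enzyme, stood at 520 and 521 CPM for WT, 405 and 417 for QKO, 381 and 513 for QT7, and 482 and 556 for QT7L1. It was called in none of the 3 comparisons, with -0.34 ± 0.13 (95% interval -0.64 to -0.05, adjusted p = 0.0825) in QKO against WT. The plots of single genes set Pgk1 beside the other steps.

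**Figure D2:**
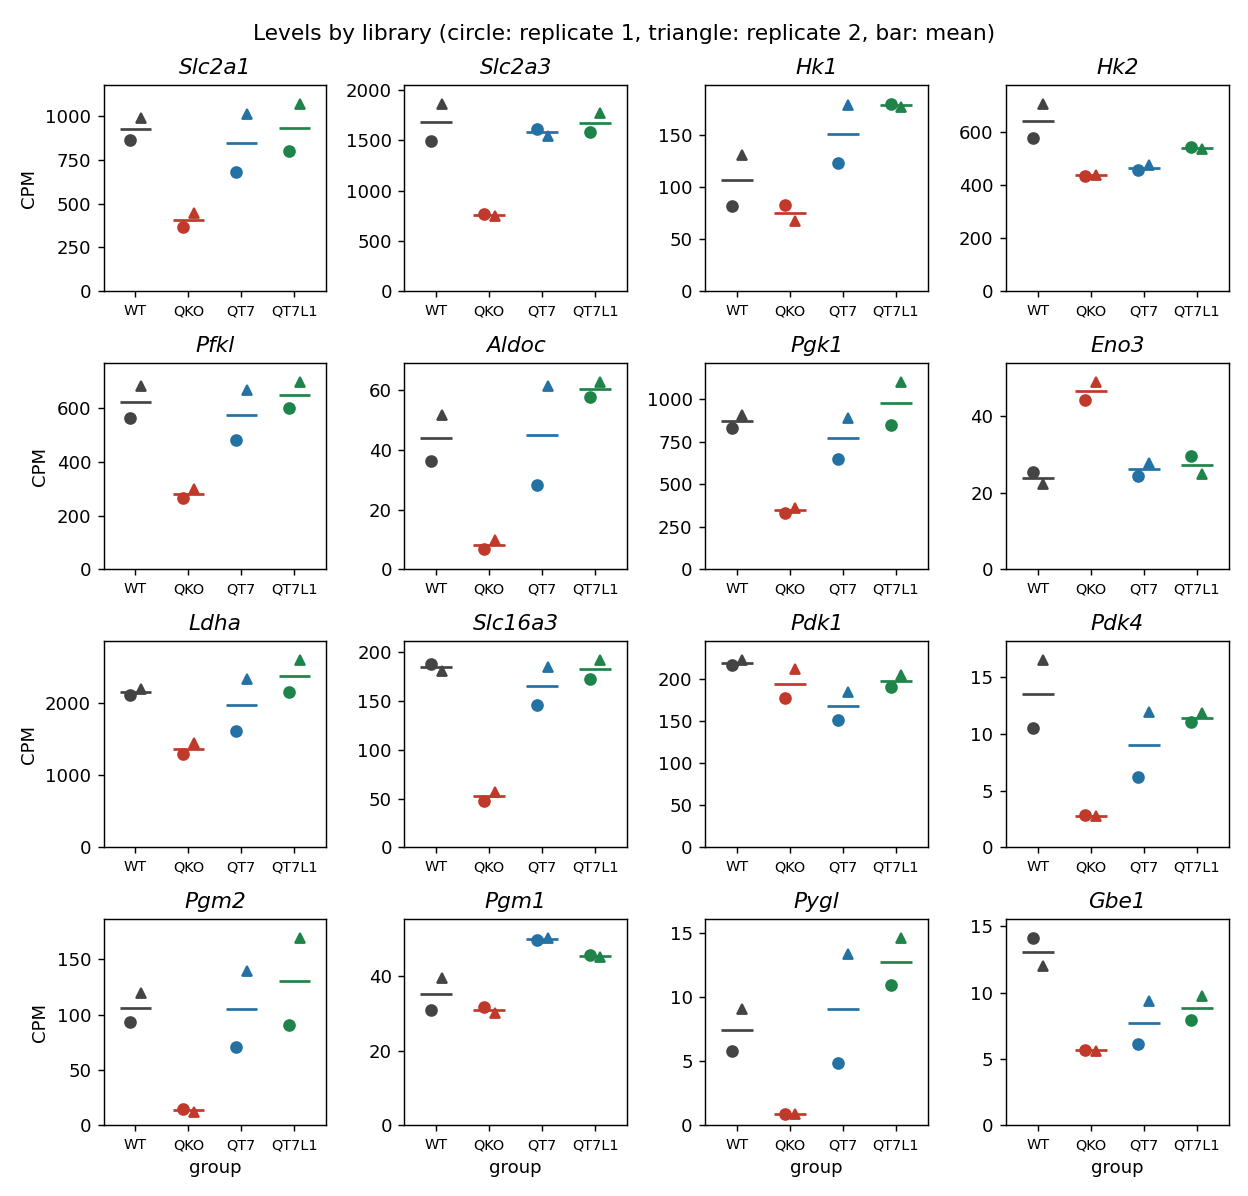
Level in CPM (vertical axis, linear and from 0) of 16 of the genes in WT, QKO, QT7 and QT7L1; circles are replicate 1, triangles replicate 2 and bars the group mean. QKO lies below the rest for Slc2a1, Slc2a3, Pfkl, Aldoc, Pgk1, Ldha, Slc16a3, Pdk4, Pgm2, Pygl and Gbe1 and above the rest for Eno3, and the QT7 replicates lie apart for Aldoc, Pgk1, Ldha, Pgm2 and Pygl.

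Of the 3 enolase genes, Eno1 and Eno2 fell in QKO and Eno3 rose. Eno1 (chr4:150236721-150248879), which held 93 to 97.4% of the step, was at 2839 and 2968 CPM for WT, 1910 and 2057 for QKO, 1936 and 2823 for QT7, and 2691 and 3045 for QT7L1. It fell by 0.55 ± 0.15 in QKO (adjusted p = 0.0291) and rose by 0.53 ± 0.15 in QT7L1 against QKO (adjusted p = 0.0293), with 0.26 ± 0.15 in QT7 (adjusted p = 0.237). The QT7 replicates straddled the gap, with replicate 1 at the QKO level. The neuronal-type gene Eno2 (chr6:124760053-124769673) was at 7.14 and 8.07 CPM for WT, 2.42 and 2.99 for QKO, 9.67 and 7.57 for QT7, and 12.4 and 7.55 for QT7L1. Its fold changes were -1.49 ± 0.28 in QKO (adjusted p = 0.00474), 1.67 ± 0.28 in QT7 (adjusted p = 0.00272) and 1.88 ± 0.28 in QT7L1 (adjusted p = 0.00157). Eno1 was not called in QKO against WT on leaving out any 1 of the WT or QKO libraries (adjusted p up to 0.156), nor in QT7L1 against QKO on leaving out any 1 library of WT, QKO or QT7L1 (adjusted p up to 0.169).

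The muscle-type gene Eno3 (chr11:70657202-70662513) was the 1 gene of the set that rose in QKO. It was at 25.4 and 22.2 CPM for WT, 44.1 and 49 for QKO, 24.3 and 27.9 for QT7, and 29.5 and 24.8 for QT7L1. It rose by 0.97 ± 0.14 in QKO against WT (adjusted p = 0.00181) and fell by 0.83 ± 0.14 in QT7 (adjusted p = 0.00301) and by 0.78 ± 0.14 in QT7L1 (adjusted p = 0.0036) against QKO, and no library decided any of these calls. Eno3 held 6.66 and 6.85% of enolase per kilobase in QKO and 2.26 to 3.72% in the other 6 libraries. Of 6 skeletal muscle markers listed, 4 were tested, and 1 was called higher and 1 lower in QKO against WT. Their summed level was 57.5 and 52.1 CPM for WT, 109 and 96.4 for QKO, 58.3 and 44 for QT7, and 58.5 and 38.6 for QT7L1. Mylpf, a myosin light chain, made up most of that sum, at 51.6 and 43.9 CPM for WT and 104 and 93.2 for QKO. The myosin heavy chain Myh3 went the other way, at 3.35 and 5.48 CPM for WT and 1.64 and 1.97 for QKO, Ckm stood at or below 0.816 CPM in all 8 libraries, and the muscle regulators Myog and Myod1 stood at or below 0.317 CPM in all 8 libraries. Their part in the Eno3 result was not tested. Pfkm, Pygm and Gys1, the other genes described here as muscle-type, were not called in QKO against WT.

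Pkm (chr9:59656368-59679375), pyruvate kinase, was at 4220 and 4570 CPM for WT, 2883 and 3178 for QKO, 3709 and 4750 for QT7, and 4323 and 5023 for QT7L1. It fell by 0.54 ± 0.13 in QKO (adjusted p = 0.013) and rose by 0.48 ± 0.13 in QT7 (adjusted p = 0.0196) and 0.62 ± 0.13 in QT7L1 (adjusted p = 0.00609). Counts per gene do not separate the M1 and M2 splice forms of this gene. The call in QKO was lost without WT replicate 2 or either QKO library (adjusted p up to 0.0987) and that in QT7L1 without QT7L1 replicate 2 (adjusted p = 0.0631). In QT7 it was lost without either QKO library or QT7 replicate 2 (adjusted p up to 0.118), with a fold change of 0.29 without QT7 replicate 2.

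Lactate dehydrogenase interconverts pyruvate and lactate, and both of its genes were lower in QKO. Ldha (chr7:46841475-46855627), the form associated with lactate production, was at 2123 and 2207 CPM for WT, 1300 and 1449 for QKO, 1612 and 2345 for QT7, and 2154 and 2608 for QT7L1. It fell by 0.66 ± 0.17 in QKO (adjusted p = 0.0198) and rose by 0.53 ± 0.16 in QT7 (adjusted p = 0.0427) and 0.79 ± 0.17 in QT7L1 (adjusted p = 0.00822). Ldhb (chr6:142490249-142507957), the heart-type form, was at 172 and 268 CPM for WT, 103 and 71 for QKO, 92.4 and 172 for QT7, and 220 and 212 for QT7L1. It fell by 1.34 ± 0.36 in QKO (adjusted p = 0.0413) and rose by 1.31 ± 0.36 in QT7L1 (adjusted p = 0.0396), with 0.6 ± 0.36 in QT7 (adjusted p = 0.266), where replicate 1 fell among the QKO libraries. Ldha held 79.7 to 90.6% of the step. Ldha lost its call in QKO on leaving out any 1 of the WT or QKO libraries (adjusted p up to 0.119), in QT7L1 without QKO replicate 1 or QT7L1 replicate 2 (adjusted p up to 0.0691), and in QT7 on leaving out any 1 library other than QT7 replicate 1 (adjusted p up to 0.207, fold change 0.23 without QT7 replicate 2) and in a fit of QT7 and QKO alone. Ldhb lost its call in QKO on leaving out any 1 library of WT, QKO or QT7L1 (adjusted p up to 0.203), in QT7L1 on leaving out any 1 of the QKO or QT7L1 libraries (adjusted p up to 0.195), and in both with the replicate number as a block.

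Lactate leaves through monocarboxylate transporters, and the pair in the set went different ways. Slc16a3 (MCT4, chr11:120948480-120960868), the exporter of glycolytic cells, was at 188 and 181 CPM for WT, 47.9 and 56.8 for QKO, 146 and 185 for QT7, and 172 and 192 for QT7L1. It fell by 1.82 ± 0.14 in QKO (adjusted p = 0.000328) and rose by 1.66 ± 0.13 in QT7 (adjusted p = 0.000769) and 1.8 ± 0.14 in QT7L1 (adjusted p = 0.000525), the smallest adjusted p of the set in each comparison, shared with Slc2a3 in QT7. Slc16a1 (MCT1, chr3:104638668-104658462), the more widely expressed transporter, was at 146 and 133 CPM for WT, 134 and 174 for QKO, 121 and 114 for QT7, and 128 and 141 for QT7L1. Slc16a1 changed by 0.14 ± 0.13 in QKO (adjusted p = 0.448) and fell by 0.39 ± 0.13 in QT7 against QKO (adjusted p = 0.0444), a call that was lost on leaving out any 1 library other than QKO replicate 1 (adjusted p up to 0.366) and in a fit of the 2 groups alone. Slc16a3 held 51.7 and 53.1% of the pair for WT, 22.9 and 21.4% for QKO, 50.1 and 57.5% for QT7, and 53 and 53.1% for QT7L1. The leading transporter gene per kilobase was therefore Slc16a1 in QKO and Slc16a3 in the other 6 libraries.

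Pyruvate dehydrogenase kinases inhibit the entry of pyruvate into the mitochondrial cycle, and the 2 scarce ones were the ones that changed. Pdk2 (chr11:95026258-95041354) was at 9.08 and 11.7 CPM for WT, 4.81 and 4.57 for QKO, 8.04 and 12.2 for QT7, and 14.1 and 13.8 for QT7L1. Its fold changes were -1.15 ± 0.23 in QKO (adjusted p = 0.00674), 1.11 ± 0.23 in QT7 (adjusted p = 0.00748) and 1.57 ± 0.23 in QT7L1 (adjusted p = 0.00165). Pdk4 (chr6:5483351-5496309), known as a fasting-induced isoform, was at 10.5 and 16.6 CPM for WT, 2.82 and 2.74 for QKO, 6.18 and 11.9 for QT7, and 11.1 and 11.8 for QT7L1. QT7 replicate 1 lay between QKO and the remaining libraries. Pdk4 fell by 2.28 ± 0.33 in QKO (adjusted p = 0.00202) and rose by 1.7 ± 0.33 in QT7 (adjusted p = 0.00595) and 2.04 ± 0.33 in QT7L1 (adjusted p = 0.0026). The abundant isoform Pdk1 (chr2:71873224-71903858), a well-known hypoxia target, was at 216 and 223 CPM for WT, 178 and 212 for QKO, 152 and 185 for QT7, and 191 and 205 for QT7L1, with -0.17 ± 0.12 in QKO against WT (95% interval -0.44 to 0.09, adjusted p = 0.306). Pdk3 stood at 38.9 to 52.5 CPM and Pdha1, the subunit these kinases phosphorylate, at 263 to 328 CPM over the 8 libraries, neither called in any of the 3 comparisons. Pdk1 held 45.5 to 59.8% of the 4 kinases per kilobase and led in every library. Pdk2 was not called in QKO without WT replicate 2 or QKO replicate 2 (adjusted p up to 0.0668), and neither Pdk2 (adjusted p = 0.0652) nor Pdk4 (adjusted p = 0.057) in QT7 without QKO replicate 2.

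Phosphoglucomutase links glucose 6-phosphate with glycogen, and the pair of genes grouped here under that name showed the largest change of lead by RNA. Enzyme activity was not measured, so the shares do not show which gene carries the step. The deposited tables name the gene at chr4:99929414-99987294 Pgm2 and the gene at chr5:64092950-64128351 Pgm1, which GENCODE M21 and RefSeq call Pgm1 and Pgm2; the names of the tables are used here. Pgm2 of the tables was at 93.4 and 120 CPM for WT, 14.8 and 12.2 for QKO, 70.8 and 139 for QT7, and 90.6 and 170 for QT7L1. It fell by 2.98 ± 0.46 in QKO (adjusted p = 0.008) and rose by 2.96 ± 0.46 in QT7 (adjusted p = 0.00771) and 3.27 ± 0.46 in QT7L1 (adjusted p = 0.00541). Pgm1 of the tables was at 30.7 and 39.5 CPM for WT, 31.7 and 29.9 for QKO, 49.4 and 50.1 for QT7, and 45.5 and 45.1 for QT7L1. It changed by -0.19 ± 0.13 in QKO (adjusted p = 0.31) and rose by 0.69 ± 0.13 in QT7 (adjusted p = 0.00501) and 0.56 ± 0.13 in QT7L1 (adjusted p = 0.0117) against QKO, above both WT libraries in all 4. Pgm2 held 72.9 and 72.8% of the pair per kilobase for WT, 29.2 and 26.6% for QKO, 56 and 71.1% for QT7, and 63.8 and 76.9% for QT7L1. In QKO against WT, Pgm2 was not called without WT replicate 2 or either QKO library (adjusted p up to 0.0739). Against QKO, Pgm2 was not called without QKO replicate 2 in either line (adjusted p = 0.0713 in QT7 and 0.0558 in QT7L1), nor Pgm1 without QKO replicate 2 in QT7 (adjusted p = 0.0515) or without QKO replicate 2 or either QT7L1 library in QT7L1 (adjusted p up to 0.0866).

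Of the 3 genes on the synthetic side of glycogen metabolism, only Gbe1 was called in QKO against WT. Ugp2, which makes the activated sugar UDP-glucose, stood at 25.6 to 38 CPM and Gys1, the muscle-type glycogen synthase, at 47.1 to 75 CPM over the 8 libraries, and neither was called. Gbe1 (chr16:70313949-70569716), the branching enzyme, was at 14.1 and 12 CPM for WT, 5.71 and 5.57 for QKO, 6.1 and 9.36 for QT7, and 7.93 and 9.74 for QT7L1. It fell by 1.21 ± 0.24 in QKO against WT (adjusted p = 0.00582), a call lost without QKO replicate 2 (adjusted p = 0.0544). The lines with a factor returned lay between, at 0.46 ± 0.24 in QT7 (adjusted p = 0.176) and 0.65 ± 0.24 in QT7L1 (adjusted p = 0.0614) against QKO, and -0.75 ± 0.23 in QT7 (adjusted p = 0.0934) and -0.56 ± 0.23 in QT7L1 (adjusted p = 0.279) against WT. Every WT library exceeded all 4 of theirs.

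Glycogen phosphorylase releases glucose 1-phosphate from glycogen. Pygl (chr12:70190811-70231488), the liver-type gene, was at 5.82 and 9.07 CPM for WT, 0.9 and 0.915 for QKO, 4.85 and 13.4 for QT7, and 10.9 and 14.7 for QT7L1. It had the largest fold changes of the 39 genes, at -3.04 ± 0.5 in QKO (adjusted p = 0.00458), 3.32 ± 0.5 in QT7 (adjusted p = 0.00298) and 3.81 ± 0.51 in QT7L1 (adjusted p = 0.00172). Pygb (chr2:150786735-150831758), the brain-type gene that led the step in every library, was at 21.8 and 27.2 CPM for WT, 10.6 and 13.9 for QKO, 26 and 22.8 for QT7, and 29.4 and 24.6 for QT7L1. It fell by 1 ± 0.18 in QKO (adjusted p = 0.00432) and rose by 0.99 ± 0.18 in QT7 (adjusted p = 0.00414) and 1.14 ± 0.18 in QT7L1 (adjusted p = 0.00207). The muscle-type gene Pygm (chr19:6384399-6398459) was at 3.19 and 4.81 CPM for WT, 3.13 and 3.74 for QKO, 4.67 and 7.06 for QT7, and 7.9 and 7.89 for QT7L1, and was called only in QT7L1 against QKO, at 1.2 ± 0.28 (adjusted p = 0.0109). The share of Pygl per kilobase was 13.3 and 15.5% for WT, 3.94 and 3.18% for QKO, 9.31 and 21.8% for QT7, and 15.6 and 21.9% for QT7L1. Pygl was not called in QKO without QKO replicate 2 (adjusted p = 0.0538), and Pygm was not called on leaving out any 1 of the QKO or QT7L1 libraries (adjusted p up to 0.0729).

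**Figure D3:**
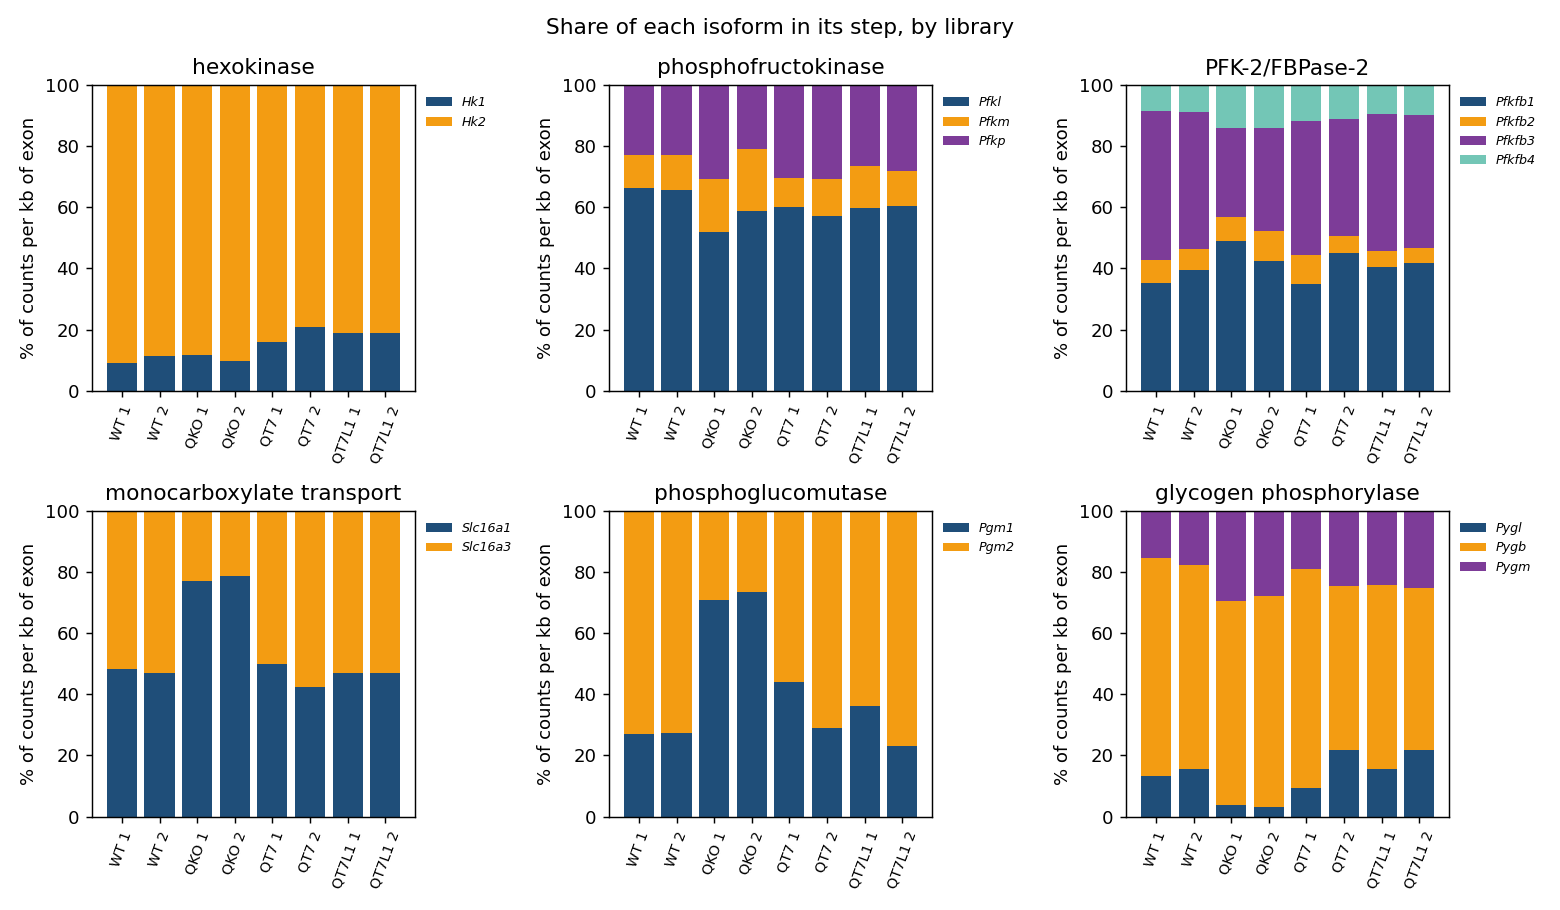
Share of each isoform within its step, in % of the step's counts per kilobase of exon, for 6 of the 11 steps with more than 1 gene; each bar is 1 library and its colours add up to 100. The QKO bars differ from the rest for monocarboxylate transport (Slc16a3 at 22.9 and 21.4%) and phosphoglucomutase (Pgm2 at 29.2 and 26.6%), and Hk1 rises to 15.9% or more in QT7 and QT7L1.

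The same isoform led in all 8 libraries in 7 of the 11 steps with more than 1 gene, and the same 7 were found with the length of the longest transcript in place of the exon union. The lead changed between libraries in glucose uptake, PFK-2/FBPase-2, monocarboxylate transport and phosphoglucomutase. The shares are given as descriptions and were not tested.

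**Figure D4:**
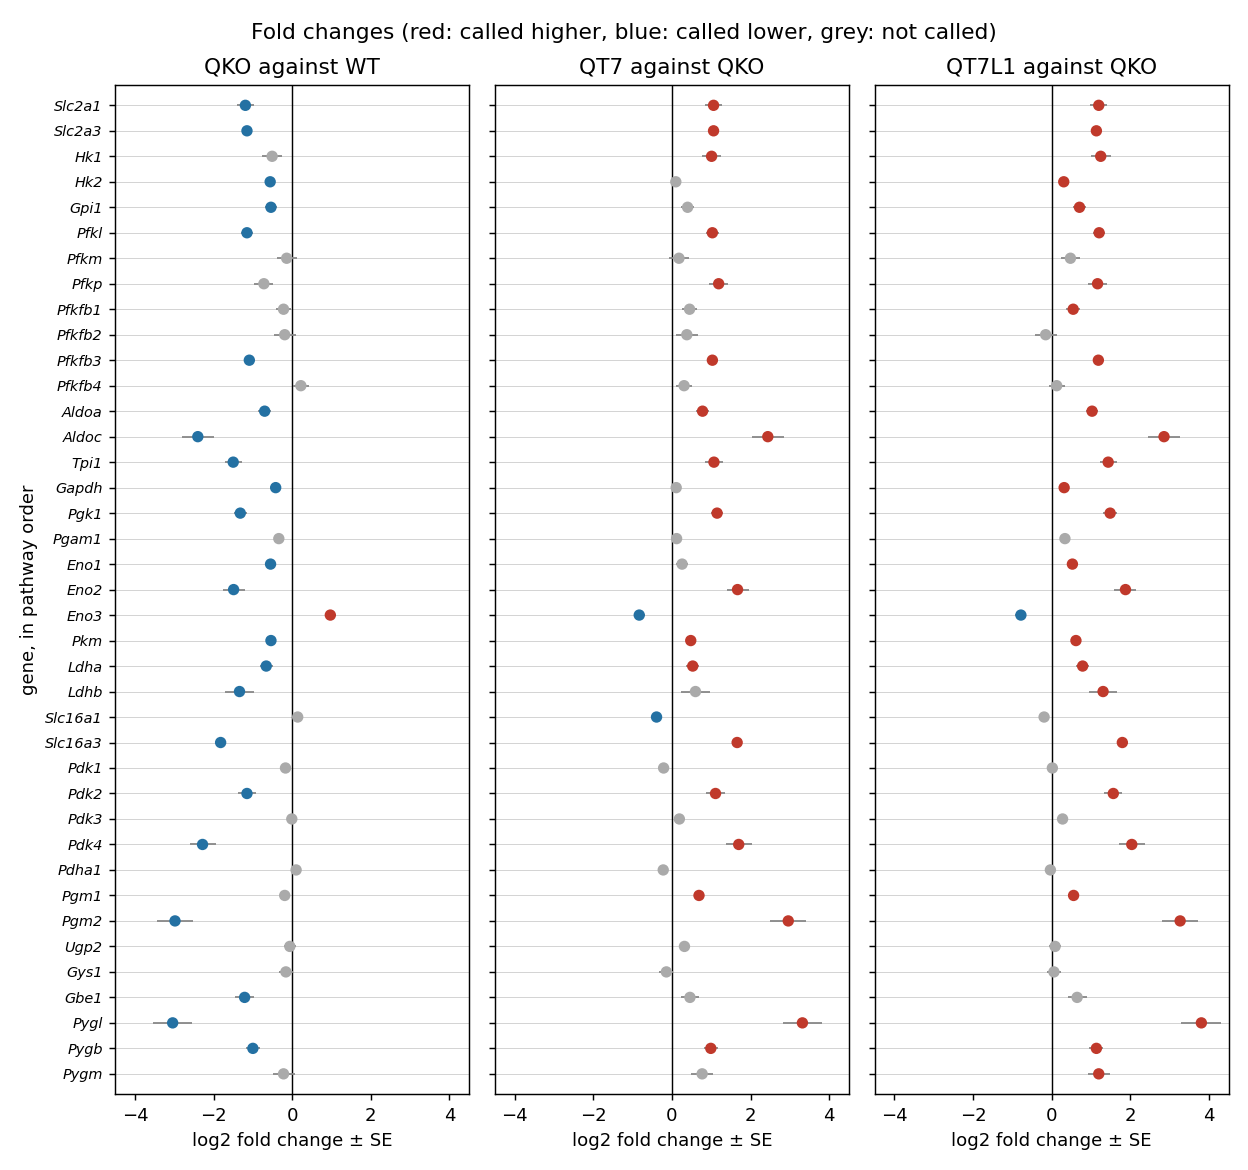
Log2 fold change ± SE (horizontal axis) of the 39 genes (vertical axis, in pathway order) in QKO against WT, QT7 against QKO and QT7L1 against QKO; red points were called higher, blue points lower and grey points were not called. Called points lie left of 0 in the first panel and right of it in the others except for Eno3 in all panels and Slc16a1 in QT7, and the largest shifts are those of Pygl and Pgm2.

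With the lines compared directly, QT7 against QT7L1, none of the 39 genes was called by edgeR or by DESeq2, and 2 had an unadjusted p under 0.05; 0.00606% of all genes, a single one, was called. Of the 39, 34 had a lower fitted level in QT7, with a median of -0.21 against 0 over all genes. The QT7 replicates themselves differed: replicate 1 was below replicate 2 in 31 of the 39 genes, by a median of 0.47 on the log2 scale, where over all genes the median difference was 0 and 50.1% were below. In WT replicate 1 was also below replicate 2 in 31 genes, with a median difference of -0.19, and the counts were 26 in QKO and 24 in QT7L1 with medians of -0.09 and -0.11. Without QT7 replicate 2, the number called lower in QT7 against QT7L1 was 12 (Pfkm, Gpi1, Aldoa, Aldoc, Tpi1, Pgk1, Pgam1, Eno1, Ldha, Pdk2, Gys1 and Pygl), where 9.17% of all genes were called in either direction, and without QT7 replicate 1 it was 0, where 0.0177% were. Each of these fits rests on a single QT7 library, which is assumed to vary like the other groups.

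**Figure D5:**
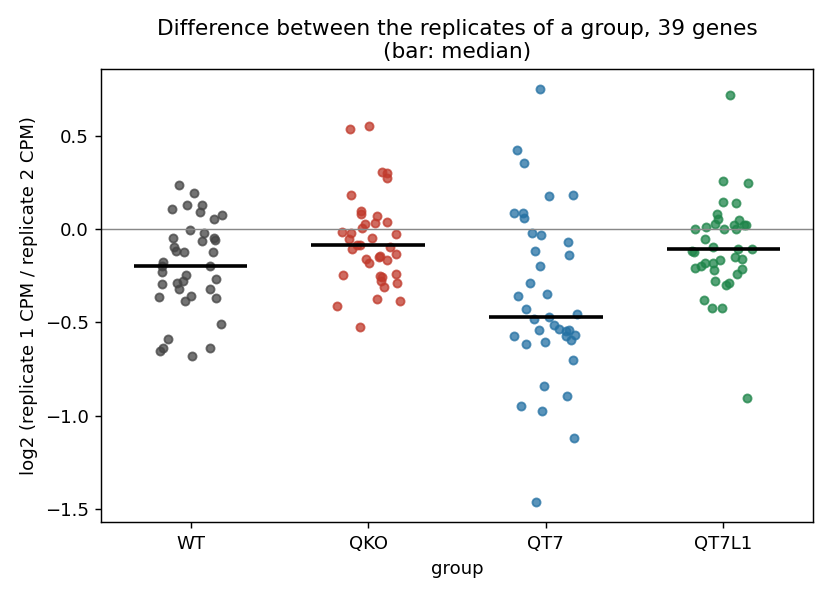
Difference between replicate 1 and replicate 2 of each group, as log2 of the ratio of their CPM, with 1 point per gene for the 39 genes and a bar at the median; a value below 0 means a lower level in replicate 1. The median is -0.47 in QT7 and between -0.19 and -0.09 in the other groups.

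Against WT, the set was close to its starting level in both lines. In QT7 against WT, Hk2 was the 1 gene called, lower, against 4.62% of all genes, 2.25% lower and 2.37% higher; 6 of the 39 had an unadjusted p under 0.05 and DESeq2 called 5, with 7.9% of all genes called by DESeq2. Without QT7 replicate 2 the count was 9, all lower, with 11.9% of all genes called, and without QT7 replicate 1 it was 0, with 2.31% called. In QT7L1 against WT none was called, against 0.745% of all genes, 0.297% higher and 0.448% lower, with 5 at an unadjusted p under 0.05 and 2 called by DESeq2, which called 4% of all genes. The medians were -0.06 in QT7 and 0.11 in QT7L1 against WT, where over all genes they were 0.01 and 0. A missed call does not show equal levels: the 95% interval in QT7L1 against WT was 0.18 to 1.31 for Hk1 (adjusted p = 0.215) and 0.36 to 1.59 for Pygm (adjusted p = 0.14), and in QT7 against WT it was 0.21 to 0.79 for Pgm1 of the tables (adjusted p = 0.0581).

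Other genes of the same pathways, taken from a list of 68 of which 57 were tested, were called at rates near those of all genes: 28.1% in QKO against WT, 33.3% in QT7 against QKO and 24.6% in QT7L1 against QKO. In QKO against WT 6 were higher and 10 lower, in QT7 against QKO 13 were higher and 6 lower, and in QT7L1 against QKO 11 were higher and 3 lower; their medians were -0.04, 0.15 and 0.09. Ppp1r3b, which targets a phosphatase to glycogen, was at 4.6 and 10.3 CPM for WT, 1.12 and 1.19 for QKO, 8.55 and 10.3 for QT7, and 9.45 and 8.92 for QT7L1, a fall of 2.69 ± 0.36 on the log2 scale in QKO (adjusted p = 0.00149). The lysosomal glucosidase Gaa, which breaks down glycogen (log2 fold change -0.71 ± 0.1, adjusted p = 0.00179), and the sugar transporter Slc2a8 (-1.07 ± 0.16, adjusted p = 0.00225) fell as well, and Ppp1r3b, Gaa and Slc2a8 rose in both lines against QKO. Tigar, which removes fructose 2,6-bisphosphate, was at 87.6 and 85.8 CPM for WT, 132 and 123 for QKO, 75.8 and 81.1 for QT7, and 82.3 and 74.1 for QT7L1. It rose by 0.56 ± 0.1 in QKO (adjusted p = 0.00402) and fell by 0.7 ± 0.1 in QT7 (adjusted p = 0.00165) and 0.71 ± 0.1 in QT7L1 (adjusted p = 0.00132) against QKO, the opposite course to Pfkfb3. Mpc1, part of the mitochondrial pyruvate carrier, rose by 0.74 ± 0.17 in QKO (adjusted p = 0.0126) and was not called in either line against QKO. These counts fell to between 6 and 10 in QKO against WT on leaving out any 1 WT or QKO library, to 9 and 7 in QT7 without QKO replicate 1 or 2, and to between 7 and 9 in QT7L1 on leaving out any 1 QKO or QT7L1 library.

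Reads from some of these genes cannot be told from those of near-identical copies. In GENCODE M21, over 10% of the 50-base windows of the longest transcript also occur in another gene for Gpi1, Pfkfb2, Aldoa, Gapdh, Pgk1, Pgam1, Eno1, Pkm, Ldha and Ldhb, and the share reaches 68% for Pgk1 and 72.2% for Eno1. Over 10% of the exon bases lie under an antisense exon for Gpi1, Pdha1 and Pgm2 of the tables, and under an exon of another gene on the same strand for Pfkm, Pfkfb2 and Pkm. How the counting treated such reads, and whether it used strand, is not given in the sources used here, so the levels of these genes are less certain than those of the rest.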

How the data were processed

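RNA was measured in 8 libraries of mouse embryonic stem cells, 2 in each of 4 groups taken from the sample titles. Per the labels' protocols, the input was 250 ng of total RNA per library and the kit Illumina TruSeq stranded mRNA. Per the submitters' processing notes, the tools were bcl2fastq 1.8.4, STAR 2.4.0f1, HTSeq and DESeq2 (listed as 2.1.8.3), on mm10 (GRCm38); for HTSeq, the version and the settings for strand and for multiple mapping were not given in the sources used here. Counts per Ensembl gene were deposited for each library. The authors' deposited comparison tables hold a mean signal, log2 fold changes with SE, a test score and p-values; they served to pair identifiers with symbols and to compare calls, and their scores were not used.

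Counts were fitted in R 4.3.3 with edgeR 4.0.16: filterByExpr at its defaults (16515 genes kept), TMM scaling, 1 mean per group over 8 libraries (4 residual degrees of freedom), robust quasi-likelihood F tests, 2-sided, Benjamini-Hochberg over all genes tested, called under 0.05. The code was tested on simulated data. The SE of a log2 fold change was taken as its size over the square root of F. The p-values rest on a spread estimated over all 4 groups together, not on that of the groups compared. In QKO, QT7 and QT7L1 the replicates are clones, and for WT the labels say only biological replicates. Shares of isoforms use CPM per kilobase of the union of GENCODE M21 exons.

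A gene was described in every library where it was called in QKO against WT, in a line with a factor returned against QKO, or between the lines, or shares a step with such a gene; a few others are also given. Up to 4 other pathway genes per direction, by adjusted p, could be named at an average log2 CPM of at least 2. One gene that this rule selects is not reported here. The 39 genes and the lists were chosen with earlier results of these data known. A planned ranking of genes by correlation with the set is not reported, because the QKO libraries stand apart. Alternatives were DESeq2 1.42.0, upper-quartile scaling, no filter, a filter of CPM of at least 1 in 2 libraries, a fit of only the 2 groups compared, a replicate block, each library left out, and the longest transcript for shares.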

Additional observations from a re-analysis of the deposited data

How the results depend on the processing

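No call on the 39 genes changed direction under any alternative. The share of calls on all genes that held whichever library was left out was not computed. Of their 75 calls over the 6 comparisons, 35 held whichever library was left out, 40 were lost without at least 1 library, and 7 were lost in a setting that keeps all 8. Leaving out 1 library gave 13 to 26 called in QKO against WT, 12 to 27 in QT7 against QKO, 16 to 31 in QT7L1 against QKO, 0 to 12 in QT7 against QT7L1, 0 to 9 in QT7 against WT, and 0 to 1 in QT7L1 against WT. For the other pathway genes these ranges were 6 to 19, 7 to 16, 7 to 21, 0 to 7, 0 to 6, and 0 to 0. Without the filter on low counts, 3 of the 39 were called in QT7 against QT7L1, 9 in QT7 against WT and 6 in QT7L1 against WT; DESeq2 called 5 in QT7 against WT and 2 in QT7L1 against WT, and the fit of only the 2 groups 0 and 1. Of the other pathway genes, the unfiltered fit called 22 in QT7L1 against QKO, 5 in QT7 against QT7L1, 7 in QT7 against WT and 3 in QT7L1 against WT, the fit of only the 2 groups 22 in QT7L1 against QKO, 0 in QT7 against WT and 1 in QT7L1 against WT, and DESeq2 3 in QT7 against WT and 2 in QT7L1 against WT; the cause was not tested. Each other count over all 8 libraries stayed within 1.5 times the one reported. The authors' deposited tables call 25, 22 and 26 of the 39 genes in the 3 comparisons with QKO, of which 24, 22 and 26 are called here in the same direction.

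With the replicate number as a block, 23, 24 and 27 of the 39 genes were called in QKO against WT, QT7 against QKO and QT7L1 against QKO. Over all genes the block fit called 26.1, 26.6 and 29.4%. In QT7 against QT7L1, QT7 against WT and QT7L1 against WT it called 0, 1 and 0 of the 39. Over all genes it called 0.0121, 4.85 and 1.02% there. Ldhb lost its calls in QKO and in QT7L1. For the other pathway genes the counts with the block were 13, 16, 13, 0, 1 and 0. The differences between replicates of different groups correlated at -0.21 to 0.16. With 1 pair of libraries per group, these values cannot settle whether same-numbered libraries were paired by design.

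Each group has 2 libraries, the fit has 4 residual degrees of freedom, and Pygl in QKO, the lowest level that was called, stands at 0.9 and 0.915 CPM.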
